A study of Mus musculus with 6 samples.

Results

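Muc1, Muc4, Muc5b, Muc13, Muc15, Muc16 and Muc20 were followed as the membrane and gel mucin genes of the mouse submandibular gland (SMG). They were chosen by gene symbol from the unfiltered table of raw counts and make up 7 of its 43280 rows. RNA was sequenced from SMGs of female mice on a C57BL/6 background, 3 glands labelled wildtype (WT) and 3 labelled DKO, numbered 1, 4 and 5 in each group. WT carried both Hs3st3a1 and Hs3st3b1, which encode heparan sulfate 3-O-sulfotransferases. DKO was made by a zinc finger nuclease, which left a frameshift deletion in exon 1 of Hs3st3a1 on an allele whose Hs3st3b1 held a LacZ cassette. Both changes are in the germ line and so in every cell of the mouse. The study describes adult littermates from intercrosses of heterozygous mice and selected 3 founders. The founder of these mice, their exact age and any treatment were not given in the sources used here.

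Mucins are large glycoproteins whose serine- and threonine-rich stretches, often built from tandem repeats, carry dense O-linked sugar chains. Membrane mucins are anchored in the apical membrane of epithelial cells, where they form a barrier and can pass signals inward, and much of their outer part can be shed. Gel-forming mucins are secreted, link into long polymers through disulfide bonds and give saliva and mucus their viscosity. In salivary glands, acini make the primary saliva and ducts modify it. Muc13 protein was also used by the study to stain granular ducts, the duct segment of the rodent SMG that stores growth factors and kallikreins. In male DKO glands the study reported less of this staining. Its quantitative PCR listed a difference of Muc13 RNA in male DKO glands and gave no p-value for Muc13 in females.

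Muc13 was the single abundant gene of the 7, and the coding sequence that carries its tandem repeat is shown because mucins often hold such repeats and a short read inside identical copies has several possible places. The gene lies on chromosome 16, from 33794037 to 33819934 on the plus strand of GRCm38. In the longest coding transcript of GENCODE M21, of 2969 bases, a stretch of 582 bases repeated every 81 bases, with 7.19 copies at 99% identity. It lies inside the coding sequence and makes up 19.6% of the transcript. Capitals mark bases that differ from the consensus of the copies, and each unit is written 5′ to 3′. Unit 1 crosses an intron, and units 2 to 6 are identical, so that unit 2 stands for all 5 of them.
Muc13 unit 1, 4 differences, chr16:33794575-33799012 with the intron: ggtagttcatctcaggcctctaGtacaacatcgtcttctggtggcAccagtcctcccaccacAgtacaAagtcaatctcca
Muc13 unit 2, no difference, chr16:33799013-33799093: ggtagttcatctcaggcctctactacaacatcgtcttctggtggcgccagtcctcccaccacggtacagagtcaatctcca
Muc13 unit 7, 1 difference, chr16:33799418-33799498: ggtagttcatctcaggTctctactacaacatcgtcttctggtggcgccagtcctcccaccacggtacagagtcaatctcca

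The other members differed in how much of their transcript was repeated. Muc4 had the longest stretch, 3657 bases with a period of 372 bases, but its copies were only 76.8% identical. Muc16 held 1457 bases with a period of 456 bases at 75.3% identity. Muc1 had 1.79 copies of a 312-base unit at 95.1% identity, and Muc20 had 1.66 copies of a 117-base unit at 97.4%. No stretch reached the score minimum in Muc5b or Muc15 at the periods searched, which were 12 to 500 bases. Of all windows of 50 bases, 14.2% occurred more than once in Muc13, 21.9% in Muc5b, 10.1% in Muc4 and 2.06% in Muc16. Windows shared with another gene were fewer than those repeated within the gene, except in Muc15 and Muc20, which had no repeated window. In Muc1, Muc5b and Muc16 100% of the windows occurred in no other gene's transcripts, against 99.6% in Muc15, 97.9% in Muc4, 96.5% in Muc13 and 86.7% in Muc20.

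**Figure D1:**
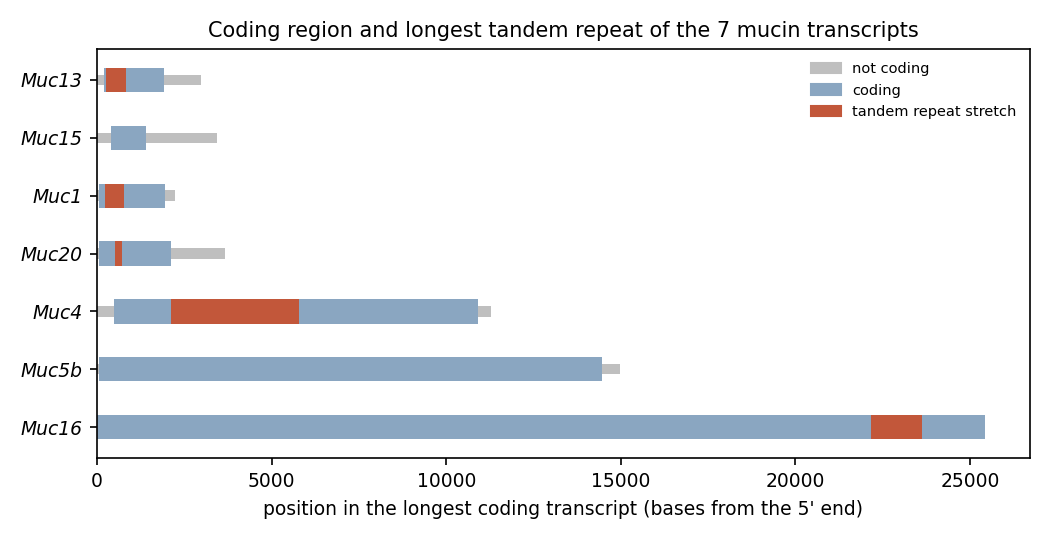
The longest coding transcript of each mucin gene, drawn from its 5′ end in bases, with non-coding parts in grey, coding sequence in blue and the highest-scoring tandem repeat stretch in red. Periods of 12 to 500 bases were searched. The stretch of Muc13 is 582 bases long and that of Muc4 is 3657 bases long. None reached the minimum score in Muc5b and Muc15, though 21.9% of the 50-base windows of Muc5b occurred more than once.

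Total counts were between 23674258 and 29611975 per library, and 18606 of the 43280 rows had at least 10 counts over the 6 libraries and were tested with DESeq2. The targeted genes did not separate the groups. Counts are given in the order 1, 4 and 5 of the library labels. Those of Hs3st3a1 were 15, 11 and 15 with the label WT and 11, 8 and 13 with the label DKO (log2 fold change -0.22, SE 0.61, adjusted p = 0.947 by DESeq2). Those of Hs3st3b1 were 173, 203 and 261 against 255, 120 and 189 (-0.04, SE 0.24, adjusted p = 0.976 by DESeq2). By quantitative PCR the study found neither gene expressed in adult DKO glands, male or female. Its mass spectrometry showed altered heparan sulfate in DKO glands of both sexes. Whether the reads counted here fall on the deleted parts was not tested, and the directions below are those of the labels. The libraries labelled WT 5 and DKO 1 stood apart by genes of the neighbouring sublingual and parotid glands. Muc19, the gel-forming mucin of the sublingual gland, had 62150 counts in WT 5 and 3906 in DKO 1 against 27 to 120 in the other 4, and Bpifa2, a parotid secretory protein, had 88122 and 3632 against 70 to 105. WT 5 and DKO 1 were also low in Ren1, a gene of the granular duct list below. It had 93 and 119 counts there against 11964 to 49381 in the other 4, and the cause was not tested. Values without both libraries are given beside the mucins, the ratios, the main lists and the genes called.

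Of the 7 genes, 6 had at least 1 count, 4 were counted in all 6 libraries and passed the filter, and 1 was not detected. Muc13 held 96.8% of the 7412 counts of the 7 genes, between 95.2% and 97.8% in each library. The other members together had 235 counts. Muc1 had 121 counts, Muc20 had 92 and Muc15 had 20, and Muc4 and Muc16 had 1 each. Muc5b had 0 of 161698788 counts. That allows a level of up to 0.0186 CPM (the count scaled to the library total) over all libraries, and between 0.101 and 0.127 CPM in a single one, with counting error only.

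**Figure D2:**
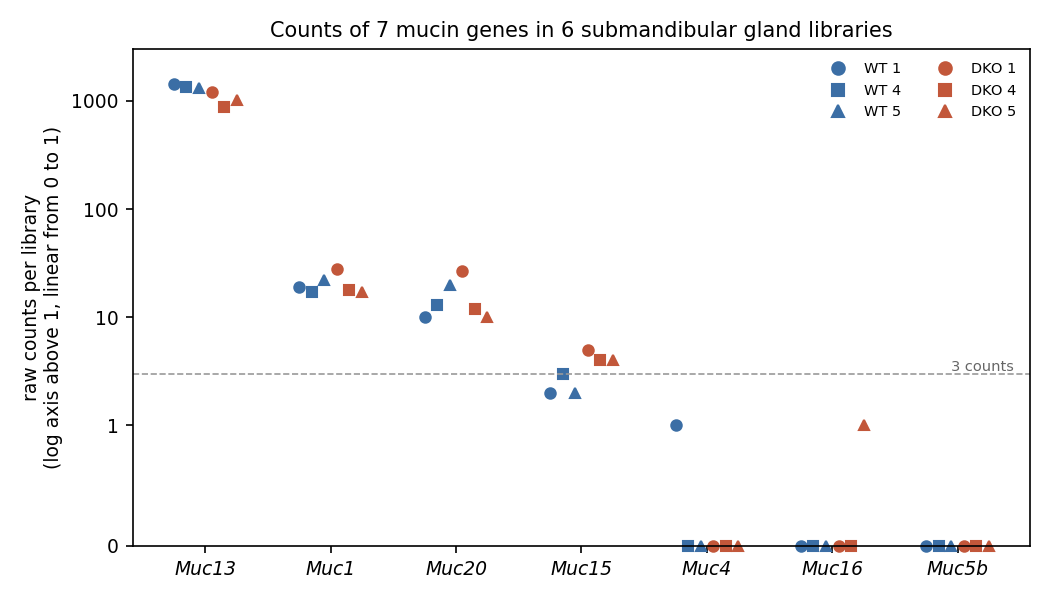
Raw counts of the 7 mucin genes in each library (log axis above 1, linear from 0 to 1), blue for WT and red for DKO, with a dashed line at 3 counts. Muc13 lies between 877 and 1434 counts, Muc1 between 17 and 28, Muc20 between 10 and 27, and Muc15 between 2 and 5.

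Levels of different genes were compared per length, as normalized counts per kb of exon. Muc13 reached 391 over the 6 libraries (range 302 to 467), and 94.3% of the 17259 tested genes with a known length were below it. Muc1 reached 8.53 (7.09 to 11.3), with 24.7% of genes below it, and Muc20 reached 3.73 (2.46 to 6.36), with 15.5% below it. Muc15 was at 0.945 (0.502 to 1.33), with 4% below it. The ranges of these 4 genes did not overlap, so their order was the same in each library. By the ratio of the means, Muc13 was 45.8 times Muc1, 105 times Muc20 and 414 times Muc15. Against the most that 3 counts over all libraries would allow for Muc5b, 0.0335 normalized counts per kb, Muc13 was at least 11682-fold higher and Muc1 at least 255-fold higher. Muc4, Muc16 and Muc5b could not be ordered among themselves at this depth.

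Among the membrane mucins, Muc13, a transmembrane mucin with EGF-like domains outside the cell, was counted 1434, 1335 and 1325 times in the glands labelled WT. In the glands labelled DKO it was counted 1198, 877 and 1008 times. After median-of-ratios scaling these were 1419, 1306 and 1187 normalized counts against 1137, 917 and 1162. The 3 DKO libraries were lower than the 3 WT libraries without overlap, but the lowest WT value, 1187, lay close to the highest DKO value, 1162. Means were 1304 ± 116 and 1072 ± 135 normalized counts (SD, n = 3), a log2 fold change of -0.28 (SE 0.13, 95% interval -0.53 to -0.03, or 0.822 of the WT level with an interval of 0.691 to 0.978). The unadjusted p-value was 0.0267 and the DESeq2 adjusted p = 0.260, so Muc13 did not pass the threshold of 0.05. In these bulk samples, fewer cells of a type and less RNA per cell cannot be told apart.

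The scaling decided whether Muc13 was called. Scaled to total counts, it was at 60.6, 49.5 and 48.5 CPM in the WT libraries and 42.4, 29.6 and 39.0 CPM in the DKO libraries, or 52.9 ± 6.70 and 37.0 ± 6.61 CPM (SD, n = 3). With total counts as size factors the log2 fold change was -0.51 (DESeq2 adjusted p = 0.0163), where 7.91% of all rows were called. That scaling also moved the median of all genes tested to -0.23, and relative to that median Muc13 was at -0.28. Without the libraries labelled WT 5 and DKO 1, with median-of-ratios scaling, it was at -0.39 (DESeq2 adjusted p = 0.451).

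**Figure D3:**
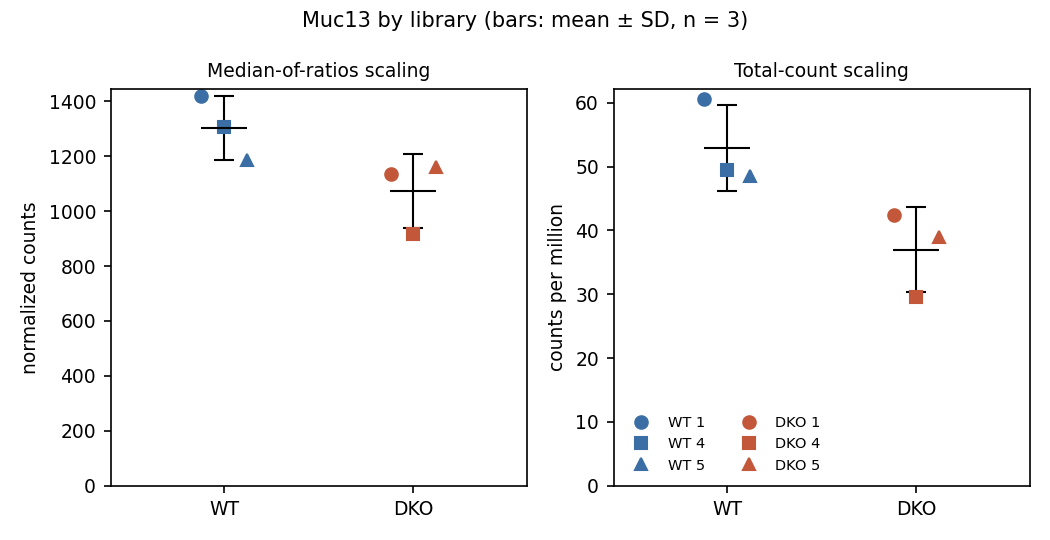
Muc13 in each library as normalized counts (left) and as CPM (right), with the mean and SD of each group as bars. The groups do not overlap on either scale, with a gap from 1187 to 1162 normalized counts on the left and from 48.5 to 42.4 CPM on the right.

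Muc1, the widely expressed membrane mucin of glandular epithelia whose cytoplasmic tail binds signalling proteins, was low. Its counts were 19, 17 and 22 in WT against 28, 18 and 17 in DKO. The highest value was in DKO 1 and the groups overlapped. Normalized counts were 18.4 ± 1.58 and 21.7 ± 4.27 (SD, n = 3), and the log2 fold change was 0.24 (SE 0.47, 95% interval -0.69 to 1.17, adjusted p = 0.919 by DESeq2). The interval spans 0.622 to 2.24 times the WT level, so neither a modest rise nor a modest fall was detectable at this depth.

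Muc20, a membrane mucin known to bind the receptor MET, gave counts of 10, 13 and 20 in WT against 27, 12 and 10 in DKO. The groups overlapped, and the value that lifted the DKO mean came from DKO 1. Normalized counts were 13.5 ± 4.07 and 16.6 ± 7.86 (SD, n = 3), and the log2 fold change was 0.30 (SE 0.59, 95% interval -0.86 to 1.46, adjusted p = 0.919 by DESeq2). Without DKO 1 the sign turned, to -0.17. Both Muc1 and Muc20 were highest in DKO 1 and, within WT, in WT 5, the libraries with sublingual and parotid genes. For Muc1 the margin within WT was small, 22 counts in WT 5 against 19 in WT 1. A link to the sublingual and parotid genes was not tested. Without WT 5 and DKO 1, Muc1 was at 0.11 and Muc20 at 0.09 on the log2 scale.

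Muc15, a heavily glycosylated membrane mucin first described in milk, gave counts of 2, 3 and 2 in WT against 5, 4 and 4 in DKO. Every DKO library was above every WT library, by as little as 1 count. Normalized counts were 2.24 ± 0.613 and 4.51 ± 0.294 (SD, n = 3) and the log2 fold change was 1.02 (SE 1.12, 95% interval -1.18 to 3.21, unadjusted p = 0.364 in the DESeq2 fit), and no adjusted p-value was given because of its low mean. From the summed 7 and 13 counts, the ratio of DKO to WT was 2.03 with a counting interval of 0.754 to 6.02. Without WT 5 and DKO 1 the log2 fold change was 0.84. Muc4, a membrane mucin that binds the receptor ErbB2, had its 1 count in WT 1, and Muc16, which carries the CA125 antigen, had its 1 count in DKO 5. No ratio can be formed for these.

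Muc5b, the member that forms gels and a main mucin of saliva and airway mucus, was at 0 in all 6 libraries, also in WT 5 and DKO 1, where the sublingual gel mucin Muc19 was counted. The gel-forming mucins Muc5ac and Muc6 and the membrane mucin Muc3 were at 0 in every library as well, and Muc2, the gel-forming mucin of the intestine, had between 1 and 8 counts.

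In all, 0 of the 4 mucins tested passed a DESeq2 adjusted p under 0.05, against 2.90% of all rows tested. At an unadjusted p under 0.05 there was 1, Muc13, where 12.2% of all rows passed. edgeR and limma-voom called none of the 4, and called 10 and 7 of all rows (0.0537% and 0.0376%). The groups did not overlap for 2 of the 4, Muc13 downward and Muc15 upward, against 20.3% of all rows (10.5% lower and 9.85% higher). The directions were mixed, with a median log2 fold change of 0.27 over the 4 genes and 0.00 over all rows. These counts leave out the 3 members that were too low to be tested.

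**Figure D4:**
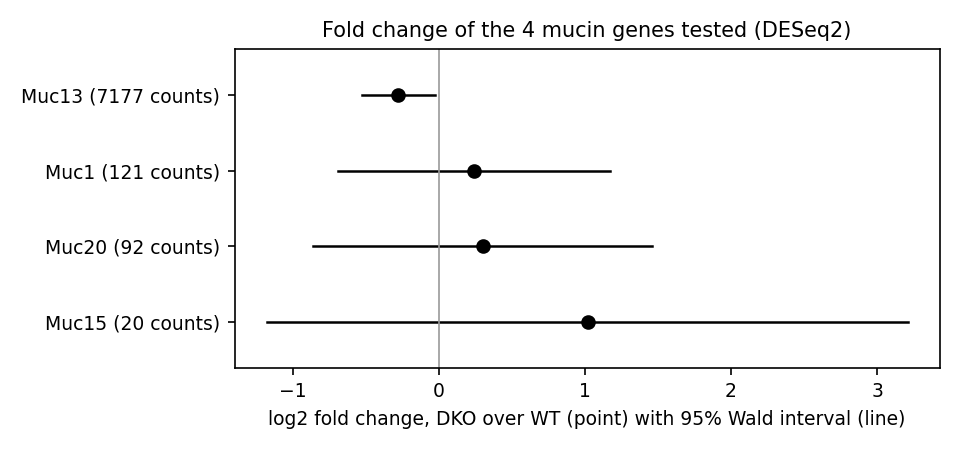
Log2 fold change of DKO over WT (points) with 95% Wald intervals (lines) for the 4 mucin genes tested, with the summed counts of each beside its name. The interval of Muc13 runs from -0.53 to -0.03 and those of Muc1, Muc20 and Muc15 include 0 and widen as the counts fall.

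Overlaps with other genes bear on these counts, since the libraries were not stranded and reads from opposite strands cannot be told apart. Muc4 and Muc20 are neighbours on chromosome 16 and their exons overlap on opposite strands over 627 bases, which is 15.6% of the exon bases of Muc20 and 5.33% of those of Muc4. The antisense gene Gm15657 overlaps 184 bases, or 6.06%, of the exons of Muc13, and its row had 20, 12 and 12 counts in the WT and 13, 8 and 5 in the DKO libraries. Muc15 shares 61 bases, or 1.71%, with exons of Ano3, which had between 0 and 2 counts per library. How reads in these stretches were assigned is not given in the sources used here.

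The remaining genes lie apart from these pairs in GENCODE M21. Muc1 lies on chromosome 3 from 89229057 to 89233381 on the plus strand, Muc5b on chromosome 7 from 141839070 to 141873084 on the plus strand, and Muc16 on chromosome 9 from 18495455 to 18674530 on the minus strand. Muc4 runs from 32735886 to 32782391 of chromosome 16 on the plus strand and Muc20 from 32777419 to 32797435 on the minus strand. Muc15 lies on chromosome 2 from 110721340 to 110739527 on the plus strand.

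Muc13 was set against duct and epithelial genes within each library, a ratio that no scaling can change. The 6 comparisons were chosen after values were seen. Per 1000 counts of Egf, the growth factor stored in granular ducts, there were 21.9, 21.8 and 16.9 counts of Muc13 in WT against 29.2, 27.1 and 24.5 in DKO. All 3 DKO ratios were above the WT ratios, with means of 20.2 ± 2.85 and 26.9 ± 2.33 (SD, n = 3) and a log2 difference of 0.42. Per 1000 counts of the 13 Klk1b kallikrein genes summed, the means were 5.24 ± 0.543 and 7.68 ± 0.918 (SD, n = 3), again without overlap, with a log2 difference of 0.55.

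The ratio did not separate the groups for the duct genes Krt7, Ehf and Cftr. Per 1000 counts of the duct keratin Krt7 it was 863, 799 and 645 in WT and 835, 592 and 792 in DKO, a log2 difference of -0.06 (two-sided exact permutation p = 0.6). For Ehf, an epithelial transcription factor, the difference was -0.09, and for the chloride channel gene Cftr it was 0.07, with overlap in both (two-sided exact permutation p = 1 each). Against Krt18, a keratin of simple epithelia, the ratio was 251 ± 23.3 in WT and 187 ± 34.1 in DKO (SD, n = 3), a log2 difference of -0.43 without overlap. For the 3 ratios without overlap the two-sided exact permutation p was 0.1, the smallest that 3 libraries against 3 can give, and 0.2 after Benjamini-Hochberg adjustment over the 6, so none passed 0.05. Without WT 5 and DKO 1 the log2 difference was 0.24 for Egf, 0.37 for the Klk1b genes and -0.63 for Krt18, again without overlap. It was -0.19 for Ehf and -0.00 for Cftr with overlap, and for Krt7 it was -0.28, where the 2 libraries left in each group no longer overlapped.

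**Figure D5:**
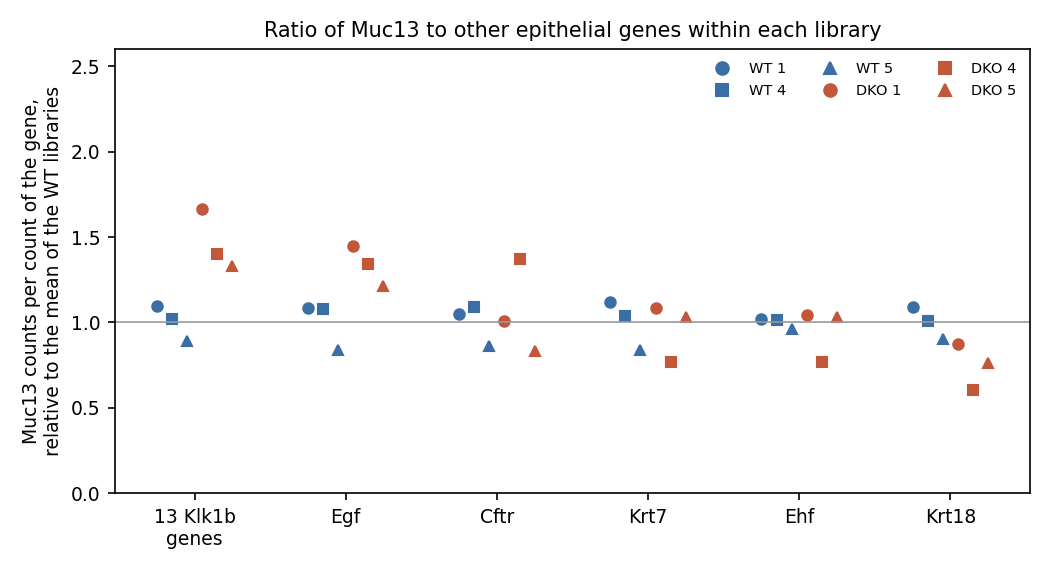
Muc13 counts per count of another gene in each library, divided by the mean of the 3 WT libraries (grey line at 1). For the 13 Klk1b genes and Egf the DKO points lie above the WT points, for Cftr, Krt7 and Ehf they overlap, and for Krt18 they lie below.

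Most genes of the granular duct and myoepithelial marker lists were lower in DKO, and their part in the values of Muc13 was not tested. Over all rows tested, 1.02% were higher and 1.88% were lower. Of 17 granular duct genes tested, led in abundance by Klk1 and Klk1b26, 15 were lower and 0 higher, with a median log2 fold change of -0.91. The 2 that did not pass were Ren1 and the most abundant gene, Klk1, which was at 0.28 on the log2 scale (adjusted p = 0.424 by DESeq2) and weighs most in the sums. The summed level of the list was 459667 to 550037 normalized counts in WT and 349627 to 476415 in DKO. Of 9 other duct genes, led by Ehf and Elf5, 1 was lower, with a median of -0.23 and sums of 16582 to 17546 against 14910 to 15955. Of 4 basal duct genes, led by Krt14 and Trp63, 1 was lower, with sums of 958 to 1001 against 650 to 903. All 7 myoepithelial genes tested were lower, led by Myh11 and Acta2, with a median of -0.74 and sums of 10803 to 11717 against 5932 to 7691. Of 8 acinar genes, led in abundance by Spt1 and Prol1, 2 were higher and 0 lower, with a median of 0.36. The 2 higher genes were Agt (1.23) and Aqp5 (0.54). Without WT 5 and DKO 1, 11 granular duct genes, 0 other duct genes, 1 basal duct gene and 6 myoepithelial genes were lower and 1 acinar gene was higher.

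Genes listed as markers of other tissues were also counted. Of the 5 sublingual genes fitted, led by Smgc and Muc19, 1 had a p-value, and of the 5 parotid genes, led by Car6 and Pip, 2 had one, because the outlier filter of DESeq2 gave none to the others. None of those with a p-value passed, and the sublingual sum ranged from 24705 to 292446 in WT and from 18512 to 117762 in DKO. Neither list measures another gland alone. Smgc had 295383 counts in WT 1, where Muc19 had 120, and Car6 had 545847 in WT 1, where Bpifa2 had 105. Mesothelium, which expresses Muc16, was near 0, with 3.91 to 37.6 normalized counts summed over 5 genes in WT and 3.14 to 19.9 in DKO, with Msln at 2 to 36 counts per library and Upk3b and Upk1b at 0 to 3. The endothelial sum, led by Kdr and Pecam1, was 1411 to 1681 in WT and 1602 to 2035 in DKO, and the leukocyte sum, led by Ptprc and Cd3e, was 626 to 1541 and 289 to 547. None of the endothelial and leukocyte genes passed the test, nor did those of adipocytes, led by Fabp4, or of skeletal muscle, led by Ckm.

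Over the 6 libraries, the genes most like Muc13 by Pearson correlation of log2(normalized count + 1) were Asxl1 (r = 0.991), RP24-429G21.4 (r = 0.991) and Slc15a4 (r = 0.988). Of the 11488 genes with a mean of at least 50 normalized counts, 150 had r of at least 0.9. Among duct genes the coefficient was 0.87 with Slc4a11, 0.82 with Cftr, 0.81 with Egf, 0.63 with Scnn1a, 0.62 with Ehf, 0.30 with Krt7 and 0.58 to 0.82 with the 13 Klk1b genes. It was 0.76 with the myoepithelial gene Acta2, -0.69 with Krt18 and -0.82 with the acinar water channel gene Aqp5. These values are descriptions over libraries that share the difference between the groups.

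Of the other mucins and mucin-like genes, 13 had a row, 10 were fitted, 9 of them with a p-value (not Muc19), 1 was higher and 0 were lower, against 1.02% of all rows higher and 1.88% lower. The gene that rose was Mucl1, a small secreted mucin-like protein, from 241, 64 and 105 counts in WT to 666809, 833104 and 737918 in DKO (log2 fold change 12.54, SE 0.61, adjusted p = 1.40e-90 by DESeq2), and by 12.48 without WT 5 and DKO 1. Spt1, also named Mucl2, was at 0.33 (DESeq2 adjusted p = 0.0758) and Prol1, the salivary mucin Muc10, at 0.32 (DESeq2 adjusted p = 0.479), with overlap in both. The membrane and vessel glycoproteins of the list did not pass either. Cd164 was at 11228 ± 625 and 11973 ± 554 normalized counts, Podxl at 468 ± 94.7 and 549 ± 89.7, Mcam at 174 ± 10.6 and 212 ± 38.0, and Emcn at 167 ± 29.8 and 184 ± 34.0 (SD, n = 3). Ovgp1, an oviduct glycoprotein, was at 38.8 ± 6.54 and 45.7 ± 20.0 (SD, n = 3). The adjusted p-values of these 5 genes were between 0.598 and 0.905 in DESeq2.

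Genes for the shedding of membrane mucins and for their binding partners gave a single call. Of 19 tested, 0 were higher and 1 was lower, against 1.02% and 1.88% of all rows, with a median log2 fold change of -0.14. The gene that passed was Icam1, an adhesion receptor that binds Muc1, at 191, 110 and 210 normalized counts in WT and 105, 87.8 and 89.9 in DKO. The highest DKO value, 105, was just below the lowest WT value, 110, and the log2 fold change was -0.85 (SE 0.26, adjusted p = 0.0428 by DESeq2). The call was lost in edgeR (adjusted p = 0.183) and limma-voom (adjusted p = 0.258), and when any library other than WT 4 was left out, up to an adjusted p of 0.474 without WT 5, and was at 0.580 without both WT 5 and DKO 1. The 3 most abundant genes of the list did not pass the test. Ctnnb1, beta-catenin, which binds the tail of Muc1, was at 5773 ± 35.4 and 5949 ± 341, the receptor gene Erbb3 at 3364 ± 367 and 3250 ± 279, and Jup, plakoglobin, at 2588 ± 124 and 2574 ± 129 normalized counts (SD, n = 3).

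Of the genes for gel mucin assembly and mucous cells, 15 of 24 were tested, 3 were higher and 0 lower, against 1.02% and 1.88% of all rows, with a median log2 fold change of 0.15. The log2 fold change was above 0 for 10 of these genes and below 0 for 5, and ranged from -1.38 to 1.11. At an unadjusted p under 0.05 in DESeq2 there were 8 of the 15, in both directions, where 12.2% of all rows passed. Agr2, a protein disulfide isomerase of the endoplasmic reticulum needed to fold gel mucins, was at 224, 347 and 243 normalized counts in WT and 539, 654 and 565 in DKO. The groups were well apart, and the log2 fold change was 1.11 (SE 0.18, adjusted p = 3.64e-07 by DESeq2). Creb3l1, a membrane-bound transcription factor of secretory cells, rose from 2113 ± 312 to 3153 ± 171 (SD, n = 3), by 0.58 (SE 0.12, adjusted p = 5.03e-04 by DESeq2). Its relative Creb3l4 rose from 351 ± 54.3 to 551 ± 65.6 (SD, n = 3), by 0.65 (SE 0.16, adjusted p = 0.00427 by DESeq2).

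These 3 calls were lost in edgeR and limma-voom, which called 10 and 7 of all rows. Those of Agr2 and Creb3l1 held in 14 of 16 alternative settings and that of Creb3l4 in 9. The study reported Agr2 as higher in female DKO glands and listed it among its quantitative PCR differences there. In edgeR the adjusted p-values were 0.0743, 0.140 and 0.133 and in limma-voom 0.0622, 0.143 and 0.167 for Agr2, Creb3l1 and Creb3l4. That of Creb3l4 was also lost when WT 5 (adjusted p = 0.0628), DKO 4 (adjusted p = 0.0830) or DKO 5 (adjusted p = 0.0725) was left out. Without WT 5 and DKO 1, Agr2 was at 1.09 (adjusted p = 0.00343) and Creb3l1 at 0.68 (adjusted p = 0.00708), while Creb3l4 missed the threshold (adjusted p = 0.0585). The gel mucins Muc5b, Muc5ac and Muc6 were at 0 in both groups, while Muc2 had 1 to 8 counts per library. Muc19 had 27 to 62150 counts, the most in WT 5. Also at 0 in both groups were Tff1, Tff2 and Tff3, trefoil peptides secreted with mucins, and Zg16, Ern2 and Foxa3. The most abundant genes, Xbp1, Bhlha15 and Pdia3, which serve secretory cells in general, did not pass the test. Their levels were 6061 ± 458 and 6779 ± 1302, 6044 ± 422 and 6782 ± 14.7, and 3846 ± 208 and 4268 ± 454 normalized counts (SD, n = 3).

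The apical scaffold that membrane mucins attach to gave no call among 9 genes tested, where 2.90% of all rows were called. The median log2 fold change was 0.02. At an unadjusted p under 0.05 in DESeq2 there were 2, Slc9a3r2 (0.37) and Msn (-0.40), where 12.2% of all rows passed. Krt18 was at 5192 ± 37.8 and 5768 ± 505, Rdx, a linker of membrane and actin, at 4371 ± 358 and 4664 ± 409, and Krt8 at 2741 ± 221 and 2776 ± 416 normalized counts (SD, n = 3).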

How the data were processed

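The authors made unstranded Nextera XT libraries from total RNA, sequenced them on a HiSeq2500 and deposited raw counts per gene symbol. The submitters' processing notes name STAR 2.5.2a, DESeq2, edgeR, limma and the builds GRCm38, mm10 and GRCh38, with no role. The counting tool, its handling of reads with several matches and the annotation were not given in the sources used here. The deposited filtered counts served as an alternative, and the deposited table of scaled values was not used.

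Rows with at least 10 counts over the 6 libraries were tested with DESeq2 1.42.0 in R 4.3.3, the tool named by the study's methods (median-of-ratios size factors, 0.867 to 1.12, two-sided Wald test, Benjamini-Hochberg adjustment, threshold 0.05). Alternatives were edgeR 4.0.16 (quasi-likelihood), limma 3.58.1 (voom), other scalings and filters, a replicate block, and each library left out. Leaving out WT 5 and DKO 1 together was added after seeing the data. Replicate libraries differed by more than sampling noise (chi-square per degree of freedom 16.8 to 43.4). No source states separate animals for each library, so p-values measure the spread between these samples.

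Exon lengths, positions and transcripts came from GENCODE M21 (GRCm38), matched by symbol for 39469 of 43280 rows (91.2%). Tandem repeats were stretches that matched themselves at a shift of 12 to 500 bases (match 1, mismatch -2, minimum score 50). The highest-scoring stretch of each transcript was kept, and longer periods were not searched. Intervals and limits for counts of 0 (3 counts) cover counting error only.

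The members and lists were chosen with earlier results of these data known. Genes named were the 7 mucins, the targeted genes, every measured gene among the other mucins, of each pathway list the genes that passed and the 3 most abundant, of each marker list the 2 most abundant, and the 3 genes most like a member. A further ratio of Muc13 and its correlation are not reported here.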

Additional observations from a re-analysis of the deposited data

How the results depend on the processing

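The number of genes called, 539, fell to 10 in edgeR, 7 in limma-voom, 343 with a replicate block and 183 without WT 5 and DKO 1 (added after seeing the data), and rose to 1472 with total counts as size factors. Leaving out 1 library gave 149 to 817 (151 without WT 1, 817 without WT 4, 149 without WT 5, 740 without DKO 1, 170 without DKO 4 and 166 without DKO 5). The count of mucins called was 0 in 15 of 16 alternatives and 1 with total counts, where Muc13 was at -0.51. With 1 library left out, the log2 fold change was -0.35 to -0.18 for Muc13, 0.06 to 0.33 for Muc1, 0.88 to 1.26 for Muc15 and -0.17 to 0.56 for Muc20, which reversed to -0.17 without DKO 1. Muc15 was not in the filter of 10 counts in 3 libraries nor in the authors' filtered table.

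Whether the replicate numbers pair the libraries cannot be told from these counts. Deviations from the group means correlated at -0.133, -0.0244 and -0.259 between same-numbered libraries, over 11489 genes. Between differently numbered libraries they ran from -0.39 (WT 4 with DKO 1) to 0.446 (WT 5 with DKO 1). What these libraries share was not tested. With the replicate block Muc13 was at -0.29 (adjusted p = 0.531), Muc1 at 0.23, Muc15 at 1.04 and Muc20 at 0.24, and Icam1 lost its call (adjusted p = 0.168).

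Of the other genes named, with total counts as size factors the sign turned for Cd164 (-0.14), Podxl (-0.00), Emcn (-0.10), Ovgp1 (-0.00), Ctnnb1 (-0.20), Xbp1 (-0.08), Bhlha15 (-0.07), Pdia3 (-0.09), Krt18 (-0.09), Rdx (-0.14) and Krt8 (-0.23), and Creb3l4 (0.40) lost its call. That scaling moves the median of all genes to -0.23, and relative to it all 11 of these genes whose sign turned were above 0. It turned without WT 4 for Erbb3 (0.03), Jup (0.03) and Krt8 (-0.03), without WT 5 for Hs3st3b1 (0.08), Muc2 (0.17) and Muc19 (3.89), without DKO 4 for Hs3st3b1 (0.19), Muc2 (0.02), Ctnnb1 (-0.00), Erbb3 (0.01), Jup (0.02) and Krt8 (-0.11), without DKO 5 for Emcn (-0.01), Ovgp1 (-0.17) and Jup (0.01), and without both WT 5 and DKO 1 for Muc2 (0.19), where Icam1 (-0.76) and Creb3l4 (0.76) lost their calls. Over all libraries left out in turn, these spanned -0.01 to 0.29 for Emcn, -0.17 to 0.46 for Ovgp1, -8.82 to 3.89 for Muc19, -0.13 to 0.03 for Erbb3, -0.05 to 0.03 for Jup and -0.11 to 0.09 for Krt8. Spt1 passed the test without WT 4 (0.43) and without DKO 1 (0.42). The causes were not tested.

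Depth limits the 6 low mucins, which had 235 counts together. For Muc1, Muc20 and Muc15 the 95% intervals include both a rise and a fall.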
